A study of Mus musculus with 12 samples.

Results

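Neural stem cells are recognised by a small group of transcripts, and 10 of these were followed here: Sox2, Sox1, Pax6, Nr2e1, Msi1, Nes, Vim, Fabp7, Prom1 and Lrig1. They were picked out by gene symbol, and all 10 were found among the 55401 genes listed in the data. The study asked how nicotinamide adenine dinucleotide hydrate (NAD+), a redox coenzyme of energy metabolism, acts on adult neural stem/progenitor cells (aNSPCs). These cells were taken from the forebrain of C57BL/6 mice aged 8 to 10 weeks and grown with 20 ng/mL EGF and 20 ng/mL FGF-2, growth factors that keep them dividing. RNA-seq was done on 4 groups of 3 samples, and expression was given as FPKM, a level scaled to the length of the transcript and to the number of mapped fragments in the library. The groups under proliferating conditions were a Ctrl group without NAD+ and an NAD+ group. The groups under differentiation conditions were again Ctrl and NAD+, and both of these received 1 µM retinoic acid and 5 µM forskolin. NAD+ was used at 1 mM. The group names come from the sample titles, while the treatment label reads untreated for all 12 samples. The samples of a group are described by the study as biological repeats, and the sources used here do not say whether these are separate cultures or animals, so p-values measure only the spread between these samples, which may be technical. How long the sequenced cells were exposed is not given in the sources used here.

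Sox2, Sox1 and Pax6 are DNA-binding transcription factors that mark neural progenitors, and Nr2e1 (also called Tlx) is an orphan nuclear receptor that maintains adult neural stem cells. Msi1 is an RNA-binding protein of dividing progenitors. Nes and Vim encode the intermediate filament proteins nestin and vimentin, of which vimentin is also made by astrocytes. Fabp7 is the brain lipid-binding protein of radial glia, Prom1 is the membrane glycoprotein CD133 used to sort stem cells, and Lrig1 is a transmembrane protein that restrains growth factor receptors and marks slowly dividing stem cells. Several of these transcripts are shared by stem cells and astrocytes, and in bulk RNA fewer cells of a type and less RNA per cell cannot be told apart.

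The members are spread over the genome, and the positions below are those of GENCODE M21 on GRCm38 (mm10), where all 10 are protein-coding genes. Sox2 lies at chr3:34650405-34652461 and Sox1 at chr8:12395295-12400126, both on the plus strand and each with a single exon. Pax6 spans chr2:105668900-105697364, Msi1 chr5:115429599-115455698, Nes chr3:87971078-87980451, Vim chr2:13573927-13582826 and Fabp7 chr10:57784881-57788450, all on the plus strand. Nr2e1 at chr10:42561963-42583632, Prom1 at chr5:43993620-44102032 and Lrig1 at chr6:94604529-94700158 are on the minus strand. Sox2 sits inside the noncoding gene Sox2ot, with which it shares 0 exon bases. Prom1 shares 424 exon bases (5.91% of its own) with the antisense gene Gm16401, and Lrig1 shares 144 (2.58%) with the antisense gene Slc25a26. The library kit is not stated to keep the strand, so reads from these shared bases cannot be assigned to one gene.

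Sequences upstream of 4 members are shown, so that 3 genes that fell under differentiation conditions (Nes, Fabp7 and Sox2) can be read beside Pax6, which fell with NAD+ and did not pass between conditions. The members that rose are not among them. Each sequence is the part before the RefSeq transcription start (GRCm38.p6, plus strand, 5′ to 3′) that lies outside any GENCODE exon, and capitals mark matches to the 6 short motifs named after them. Nes is read from chr3:87970843-87971077, Fabp7 from chr10:57784673-57784880, Sox2 from chr3:34649745-34649994 and Pax6 from chr2:105668646-105668895.
Nes: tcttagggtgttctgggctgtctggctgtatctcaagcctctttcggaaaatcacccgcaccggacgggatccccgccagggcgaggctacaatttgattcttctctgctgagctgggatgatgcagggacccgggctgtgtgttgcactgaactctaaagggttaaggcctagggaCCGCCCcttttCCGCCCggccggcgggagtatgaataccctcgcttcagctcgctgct
Fabp7: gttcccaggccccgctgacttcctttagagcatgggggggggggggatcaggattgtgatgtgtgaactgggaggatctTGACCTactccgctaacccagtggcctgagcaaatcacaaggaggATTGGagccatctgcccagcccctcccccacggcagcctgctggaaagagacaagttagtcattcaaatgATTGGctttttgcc
Sox2: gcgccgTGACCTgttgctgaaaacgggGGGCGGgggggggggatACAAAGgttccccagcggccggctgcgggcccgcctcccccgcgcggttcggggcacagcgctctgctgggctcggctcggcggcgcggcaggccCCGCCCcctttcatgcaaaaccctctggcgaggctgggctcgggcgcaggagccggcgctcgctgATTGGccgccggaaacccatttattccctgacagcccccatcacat
Pax6: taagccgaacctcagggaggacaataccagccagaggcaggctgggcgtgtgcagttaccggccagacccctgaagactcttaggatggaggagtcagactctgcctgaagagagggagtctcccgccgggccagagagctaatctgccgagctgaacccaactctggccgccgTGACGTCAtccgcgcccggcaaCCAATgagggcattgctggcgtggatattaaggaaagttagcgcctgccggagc

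The motifs searched on both strands were ACAAAG and ACAATG (forms of the core bound by SOX proteins), CCAAT (the CCAAT box), TGACG (the cAMP response element half-site, of interest because forskolin raises cAMP), AGGTCA (the half-site of many nuclear receptors, retinoic acid receptors among them) and GGGCGG (the GC box). Of the 10 members, 9 were found in the RefSeq promoter table, with 11 windows of 250 bases between them. CCAAT was present in 7 of the 11 windows, against 33.9% of 32851 promoters of the same length. GGGCGG was present in 5 windows, those of Sox2, Nes, Prom1, Lrig1 and Sox1, against 32.7% of all promoters. TGACG was found in 3 windows, both of Pax6 and that of Nr2e1, against 17.8%, and the 2 matches in the Pax6 sequence shown lie on opposite strands and share bases. AGGTCA was found in 2 windows, those of Sox2 and Fabp7, against 14.0%. ACAAAG was found in 2 windows, that of Sox2 and a second window of Pax6, against 16.5%, and ACAATG in 0 against 10.7%. These matches describe letters only and were not measured as bound sites. Msi1 is named without a promoter.

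Before the comparisons, the libraries themselves were examined. FPKM values summed to between 308828 and 363330 per library, and depth is unknown because rounded FPKM values hold no read counts. Ctrl replicate 1 under proliferating conditions stood apart, with the highest sum (363330) and correlations across genes of 0.958 and 0.960 with its own group, whose other pair correlated at 0.976. Mitochondrially encoded genes took 16.4% to 19.9% of all FPKM under proliferating conditions and 28.9% to 33.2% under differentiation conditions. Microglial markers were almost absent, with a summed level of 0 to 0.44 FPKM over 8 genes in every library. Markers of the oligodendrocyte lineage (1053 to 1428 FPKM over 10 genes) and of astrocytes (1007 to 1836 FPKM over 8 genes) were high already in proliferating cells.

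The label of neural stem cells was borne out by some of the 10 genes and not by others. Fabp7, Sox2, Vim and Lrig1 were among the most abundant transcripts of proliferating Ctrl cells, ranking 20, 145, 181 and 306 among all genes by mean FPKM, and Nes ranked 609. Msi1, Nr2e1 and Pax6 lay between 3.02 and 11.8 FPKM. Sox1 (0.973 FPKM) and Prom1 (0.22 FPKM) were barely present, so the sorting marker CD133 was close to 0 at the RNA level in these cultures. FPKM is a level per length, so the order of genes within a group can be read directly. In both proliferating groups the order was Fabp7, Sox2, Vim, Lrig1, Nes, Msi1, Nr2e1, Pax6, Sox1 and Prom1, and only the ranges of Sox2 and Vim in the Ctrl group overlapped among neighbours. In differentiating Ctrl cells Lrig1 stood second and Nes had dropped below Msi1, and neighbours overlapped for Sox2 and Vim and for Sox1 and Prom1. In differentiating NAD+ cells Vim stood second, and Msi1 and Nes overlapped.

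**Figure D1:**
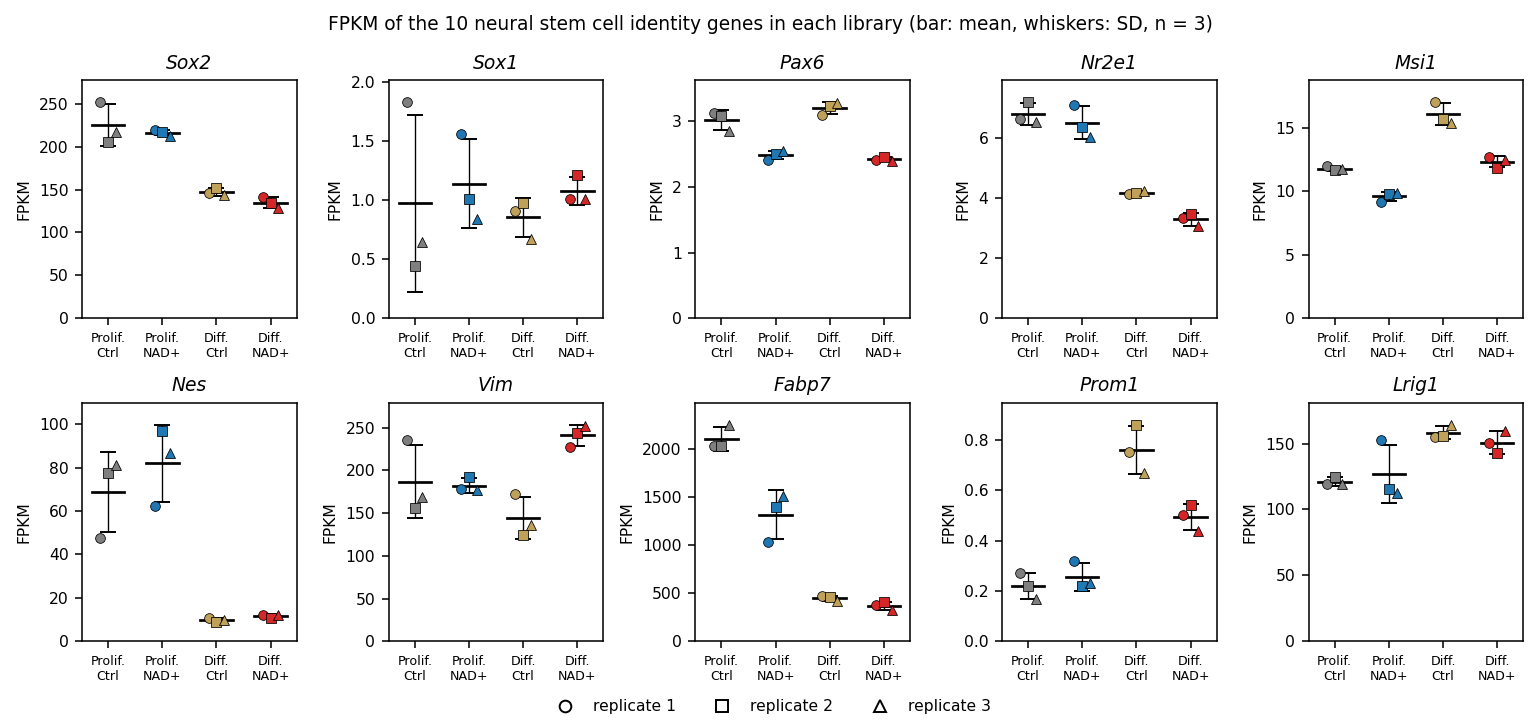
FPKM (linear axis from 0) of each of the 10 genes in each of the 12 libraries, with symbols for replicate number, a bar for the group mean and whiskers for the SD (n = 3). Nes and Fabp7 are far lower in the 6 differentiation libraries than in the 6 proliferating ones, Pax6 and Msi1 are lower with NAD+ in each condition, and Vim is highest in proliferating Ctrl replicate 1 and the 3 differentiating NAD+ libraries.

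To examine whether NAD+ changed these genes in proliferating aNSPCs, NAD+ and Ctrl were compared under proliferating conditions. None of the 10 genes passed an adjusted p of 0.05 in the limma fit over all genes, in which 27 of 18597 genes passed (0.145%). At an unadjusted p under 0.05, 3 members were lower with NAD+ (Fabp7, Msi1 and Pax6) and 0 were higher, against 6.05% of all genes lower and 9.35% higher. In the same 3 genes the groups did not overlap, which held with NAD+ lower for 8.59% of all genes. By the call rule of the study, an unadjusted p under 0.05 and means differing by more than 2-fold, 0 members passed against 3.01% of all genes. Wherever this rule is applied here, its p is that of the limma fit and not the authors' own. The median log2 fold change was -0.03 over the members and 0.07 over all genes tested. Of all genes called, 33.3% were higher with NAD+, and 21.2% with median-ratio scaling.

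Fabp7 had the largest estimate. Its FPKM was 2034.33, 2031.69 and 2253.74 in the Ctrl samples and 1030.35, 1403.02 and 1516.22 in the NAD+ samples. Every NAD+ sample lay below every Ctrl sample, and NAD+ replicate 1 was the lowest of the 6. Its mean was 2107 ± 127 FPKM (SD, n = 3) in Ctrl and 1317 ± 254 in NAD+, a log2 fold change of -0.70 (SE 0.17) with an adjusted p of 0.157. With quantile normalization the estimate was -0.32. An exact two-sided permutation test gave p = 0.10, the smallest that 3 samples against 3 can give.

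Msi1 was measured at 11.97, 11.65 and 11.72 FPKM in Ctrl and 9.16, 9.77 and 9.86 FPKM in NAD+. The groups were well separated although the difference was small, with a log2 fold change of -0.29 (SE 0.08, adjusted p = 0.178). Pax6 was measured at 3.13, 3.08 and 2.85 FPKM in Ctrl and 2.41, 2.50 and 2.54 FPKM in NAD+, and here too every NAD+ sample was below every Ctrl sample. Its log2 fold change was -0.27 (SE 0.11, adjusted p = 0.323).

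Sox2, the marker most used for these cells, was measured at 251.88, 205.67 and 216.95 FPKM in Ctrl and 218.70, 216.96 and 212.59 FPKM in NAD+. The NAD+ samples fell inside the range of the Ctrl samples. The log2 fold change was -0.05 with a 95% interval from -0.28 to 0.18 (adjusted p = 0.827), and its sign turned with quantile normalization (0.07). Nes was measured at 47.77, 77.63 and 80.94 FPKM in Ctrl and 62.48, 96.96 and 86.53 FPKM in NAD+. Replicate 1 was the lowest in each group, and the groups overlapped, although each NAD+ sample lay above the Ctrl sample of the same number. The log2 fold change of Nes was 0.27 with a 95% interval from -0.32 to 0.85 (adjusted p = 0.620), and it was 0.02 without Ctrl replicate 1. In the replicate 1 libraries, in which Nes was lowest, summed astrocyte markers were highest, at 1836 FPKM in Ctrl replicate 1 and 1726 FPKM in NAD+ replicate 1 against 1007 to 1181 FPKM in the other 4 proliferating libraries. The part of these markers in the Nes values was not tested.

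The remaining 5 genes had overlapping groups. Vim was measured at 235.89, 155.97 and 168.73 FPKM in Ctrl and 177.59, 191.88 and 177.07 FPKM in NAD+, so Ctrl replicate 1 was above all others. Its log2 fold change was -0.01 (SE 0.16, adjusted p = 0.975), and 0.17 without that library. Nr2e1 was at 6.77 ± 0.358 FPKM in Ctrl and 6.49 ± 0.551 FPKM in NAD+ (log2 fold change -0.06, adjusted p = 0.800). Lrig1 was at 121.1 ± 3.22 FPKM in Ctrl and 126.9 ± 22.1 FPKM in NAD+ (log2 fold change 0.05, adjusted p = 0.867), where the spread came from NAD+ replicate 1 at 152.38 FPKM. Sox1 ranged from 0.44 to 1.83 FPKM in Ctrl and from 0.84 to 1.56 FPKM in NAD+, with replicate 1 the highest in each group (log2 fold change 0.38, 95% interval from -0.78 to 1.54). At these levels a difference in Sox1 of the size of the members above was not detectable. Prom1 ranged from 0.17 to 0.27 FPKM in Ctrl and from 0.22 to 0.32 FPKM in NAD+ (log2 fold change 0.16, adjusted p = 0.811).

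The same comparison was made under differentiation conditions, where the cells received retinoic acid and forskolin. Here Vim rose and Msi1 and Pax6 fell with NAD+, 3 of the 10 members at an adjusted p under 0.05, against 6.92% of 19611 genes tested (2.27% higher and 4.65% lower). The groups did not overlap in 8 of the 10 genes, against 30.7% of all genes. In 6 of these NAD+ was lower (21.1% of all genes) and in 2 higher (9.68% of all genes). By the call rule of the study 0 members passed, against 4.05% of all genes. The median log2 fold change was -0.21 over the members and -0.08 over all genes. Of all genes called, 32.8% were higher with NAD+, and 53.2% with median-ratio scaling.

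Vim was measured at 172.24, 124.69 and 135.69 FPKM in Ctrl and 227.73, 243.22 and 251.92 FPKM in NAD+. All NAD+ samples lay above all Ctrl samples, of which replicate 1 was the highest. Its mean was 144.2 ± 24.9 FPKM in Ctrl and 241.0 ± 12.2 FPKM in NAD+, or 1.69-fold higher on the log2 scale of the fit (log2 fold change 0.75, SE 0.12, adjusted p = 0.0202). Summed astrocyte markers were also higher in these libraries, at 8380 to 9206 FPKM with NAD+ against 6312 to 8070 FPKM in Ctrl. Most of this sum was Apoe, which did not pass, with a mean of 7196 FPKM with NAD+ and 5704 FPKM in Ctrl. The median log2 fold change of the markers was -0.07, against -0.08 for all genes. Of the 8 astrocyte markers, 2 rose and 2 fell, against 2.27% and 4.65% of all genes. Gfap, the intermediate filament of astrocytes, rose by a log2 fold change of 0.72 (adjusted p = 0.00613), and the glutamate transporter gene Slc1a2 by 0.26 (adjusted p = 0.0366). Aldh1l1, a folate enzyme (log2 fold change -0.61, adjusted p = 0.00494), and Aldoc, a glycolytic enzyme (log2 fold change -0.35, adjusted p = 0.0475), both fell. When each of the 6 libraries was left out in turn, the Gfap and Aldh1l1 calls were kept in all 6 fits, and the Slc1a2 and Aldoc calls were lost in all 6 (adjusted p from 0.0523 to 0.124 for Slc1a2 and from 0.0711 to 0.124 for Aldoc). The part of astrocyte RNA in the Vim difference was not tested.

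Msi1 was measured at 17.03, 15.70 and 15.40 FPKM in Ctrl and 12.69, 11.83 and 12.44 FPKM in NAD+. The log2 fold change was -0.38 (SE 0.06) with an adjusted p of 0.0219, and no sample crossed between the groups. Pax6 was measured at 3.09, 3.23 and 3.27 FPKM in Ctrl and 2.41, 2.45 and 2.39 FPKM in NAD+, with SDs of 0.0945 and 0.0306 FPKM. Its log2 fold change was -0.39 (SE 0.08) with an adjusted p of 0.0401. The Pax6 call was lost with median-ratio scaling (adjusted p = 0.0896) and quantile normalization (adjusted p = 0.0965), while its estimate stayed at -0.31 and -0.30. Without moderation of the variance the Msi1 and Vim calls were lost (adjusted p = 0.0570 and 0.0881 in that fit), and of the members only Pax6 passed. With 5 libraries in place of 6, the Msi1 and Pax6 calls were lost whichever library was left out (adjusted p from 0.0520 to 0.0735 and from 0.0875 to 0.123), and the Vim call was kept only without Ctrl replicate 1 (0.0200, otherwise 0.0511 to 0.0730). All 3 kept their direction in each of these fits.

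Nr2e1 missed the threshold, although its groups did not overlap. Its values were 4.13, 4.15 and 4.23 FPKM in Ctrl and 3.33, 3.47 and 3.05 FPKM in NAD+, with a log2 fold change of -0.34 (SE 0.08, adjusted p = 0.0611). Over 15 settings, the main fit among them, its adjusted p ran from 0.0370, with a minimum mean FPKM of 1 and under the threshold in that 1 alone, to 0.157. Prom1 was measured at 0.75, 0.86 and 0.67 FPKM in Ctrl and 0.50, 0.54 and 0.44 FPKM in NAD+. All 3 NAD+ values were below the lowest Ctrl value, with a log2 fold change of -0.53 (SE 0.18, adjusted p = 0.130), and the values are low enough that rounding to 0.01 FPKM and the 0.1 added before log2 bear on the size.

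Fabp7 was measured at 467.93, 460.34 and 419.52 FPKM in Ctrl and 373.78, 409.13 and 324.31 FPKM in NAD+, a log2 fold change of -0.29 (SE 0.09, adjusted p = 0.129). Sox2 was measured at 145.40, 152.01 and 143.18 FPKM in Ctrl and 141.52, 134.02 and 128.61 FPKM in NAD+. The lowest Ctrl sample lay just above the highest NAD+ sample, and the log2 fold change was -0.13 (SE 0.05, adjusted p = 0.211). Nes was measured at 10.82, 9.00 and 9.94 FPKM in Ctrl and 12.29, 10.51 and 12.04 FPKM in NAD+, with overlapping groups and a log2 fold change of 0.23 (SE 0.09, adjusted p = 0.210). Each NAD+ sample again lay above the Ctrl sample of the same number. Sox1 was at 0.853 ± 0.163 FPKM in Ctrl and 1.08 ± 0.115 FPKM in NAD+ (log2 fold change 0.31, adjusted p = 0.353), with all NAD+ samples above all Ctrl samples. Lrig1 was at 158.3 ± 5.18 FPKM in Ctrl and 150.8 ± 8.40 FPKM in NAD+ (log2 fold change -0.07, adjusted p = 0.492), and its groups overlapped.

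**Figure D2:**
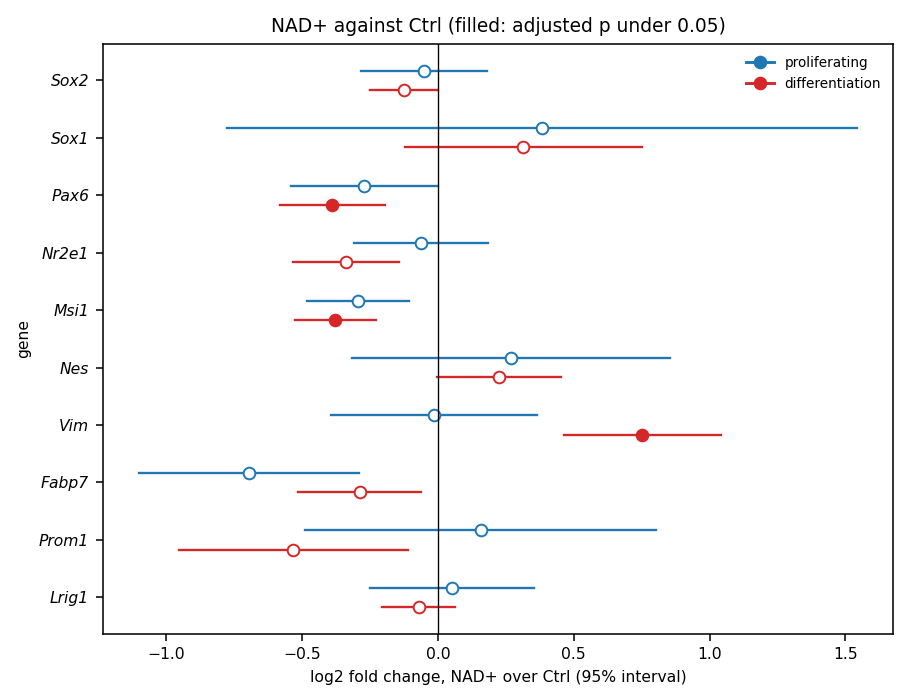
Log2 fold change of NAD+ over Ctrl (horizontal axis) for each of the 10 genes under proliferating and differentiation conditions, with 95% intervals from the limma fits. Filled points have an adjusted p under 0.05, which holds for Vim (0.75), Msi1 (-0.38) and Pax6 (-0.39) under differentiation conditions and for no gene under proliferating conditions.

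A call in one condition and not in the other does not show that the effects differ, so the difference of the NAD+ effect between conditions was tested in a fit of all 12 libraries. For 0 of the 10 members did it pass an adjusted p of 0.05, against 0.467% of 19498 genes. At an unadjusted p under 0.05 there were 3 members, Vim, Prom1 and Nr2e1, against 15.5% of all genes. For Vim the NAD+ effect was larger under differentiation conditions by 0.77 on the log2 scale (SE 0.21, adjusted p = 0.138). For Prom1 the difference was -0.69 (SE 0.29, adjusted p = 0.289) and for Nr2e1 -0.27 (SE 0.12, adjusted p = 0.322). Over all genes the median difference was -0.16, and with median-ratio scaling it was -0.01, and with it the estimate was -0.12 for Nr2e1 and -0.57 for Prom1. The share of positive differences among the genes called went from 47.2% to 75.3% with this scaling. The estimate for Msi1 was -0.08 (95% interval from -0.28 to 0.12). That for Pax6 was -0.12, with a 95% interval from -0.39 to 0.15 that reaches the size of its effect under differentiation conditions.

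Retinoic acid and forskolin are used to drive the differentiation of aNSPCs, and the members were compared between differentiation and proliferating conditions, first without NAD+ and then with it. Without NAD+, 4 members fell (Nes, Fabp7, Nr2e1 and Sox2) and 3 rose (Prom1, Msi1 and Lrig1), against 31.6% of all 19498 genes lower and 25.0% higher. With NAD+ the same 4 fell and the same 3 rose, joined by Vim, against 37.6% lower and 20.8% higher. Most genes passed in these contrasts (56.7% and 58.4% in either direction), so the number of members that passed says little, and the sizes and directions are given instead. The more than 2-fold differences of the study's call rule were met by Nes, Fabp7 and Prom1 without NAD+ (31.1% of all genes) and by Nes and Fabp7 with NAD+ (33.4% of all genes). The conditions were deposited in separate tables, and a difference in scaling between the tables cannot be told apart from a change of all genes. Median-ratio scaling moved the median of all genes from -0.06 to 0.06 without NAD+ and from -0.20 to 0.06 with NAD+, where the share of higher genes among those called went from 35.6% to 51.3%.

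Nes fell furthest. Its levels of 47.77 to 80.94 FPKM in proliferating Ctrl cells compare with 9.00 to 10.82 FPKM in differentiating Ctrl cells, a log2 fold change of -2.75 (SE 0.20, adjusted p = 9.46e-07) or 6.71-fold lower. With NAD+ the levels were 62.48 to 96.96 and 10.51 to 12.29 FPKM, a log2 fold change of -2.79 (SE 0.20, adjusted p = 6.42e-07). In both contrasts every differentiation sample lay far below every proliferating sample.

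Fabp7 fell by 2.23 on the log2 scale without NAD+ (SE 0.14, adjusted p = 3.02e-07), from 2107 to 449.3 FPKM, and by 1.82 with NAD+ (SE 0.14, adjusted p = 9.89e-07), from 1317 to 369.1 FPKM. It remained the most abundant of the 10 in all 4 groups. Sox2 fell by 0.61 without NAD+ (SE 0.08, adjusted p = 5.00e-05) and by 0.68 with NAD+ (SE 0.08, adjusted p = 1.74e-05). With quantile normalization the estimate without NAD+ was -0.12 and the call was lost (adjusted p = 0.102). Its group mean stayed at 134.7 FPKM or more, where that of Nes went to 9.92 and 11.6 FPKM. Nr2e1 fell by 0.68 without NAD+ (SE 0.09, adjusted p = 5.56e-05) and by 0.96 with NAD+ (SE 0.09, adjusted p = 3.50e-06), to 3.28 FPKM. These sizes depend on the scaling. With median-ratio scaling the log2 fold change of Nr2e1 was -0.55 without NAD+ and -0.67 with NAD+. That of Sox2 was -0.47 without NAD+ and -0.39 with NAD+, and both genes still passed.

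In the other direction, Prom1 rose by 1.43 on the log2 scale without NAD+ (SE 0.20, adjusted p = 0.000121), from a range of 0.17 to 0.27 FPKM to one of 0.67 to 0.86 FPKM. With NAD+ the rise was 0.74 (SE 0.20, adjusted p = 0.00869). Msi1 rose by 0.44 without NAD+ (SE 0.06, adjusted p = 0.000144) and by 0.36 with NAD+ (SE 0.06, adjusted p = 0.000592). Lrig1 rose by 0.39 without NAD+ (SE 0.10, adjusted p = 0.00765). Its rise with NAD+ was 0.26 (SE 0.10, adjusted p = 0.0477), and the groups overlapped through proliferating NAD+ replicate 1. The call was lost in 11 of the 12 fits that leave out a library (adjusted p up to 0.182). With median-ratio scaling this estimate was 0.55 (adjusted p = 0.00155) and with quantile normalization 0.67 (adjusted p = 0.000914). Over 21 settings, the main fit among them, it passed in 7.

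Vim had estimates of opposite sign. Without NAD+ its log2 fold change was -0.36 (SE 0.15, adjusted p = 0.0614), with overlapping groups, and quantile normalization turned it to 0.13. This estimate was -0.18 (adjusted p = 0.218) without proliferating Ctrl replicate 1, -0.48 (adjusted p = 0.0247) without proliferating Ctrl replicate 2 and -0.50 (adjusted p = 0.0189) without differentiating Ctrl replicate 1. With NAD+ Vim rose by 0.40 (SE 0.15, adjusted p = 0.0400). This call was lost without any 1 of the 6 NAD+ libraries and without differentiating Ctrl replicate 3 (adjusted p from 0.0507 to 0.105). With median-ratio scaling the rise was 0.69 (adjusted p = 0.00407) and with quantile normalization 0.70 (adjusted p = 0.000689). Over 21 settings, the main fit among them, it passed in 12. Pax6 did not pass in either contrast, at 0.08 without NAD+ (95% interval from -0.11 to 0.27) and -0.04 with NAD+ (95% interval from -0.23 to 0.15). Median-ratio scaling turned the latter to 0.24 (adjusted p = 0.0369). Sox1 had log2 fold changes of 0.03 (95% interval from -0.84 to 0.91) and -0.03 (95% interval from -0.91 to 0.85).

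**Figure D3:**
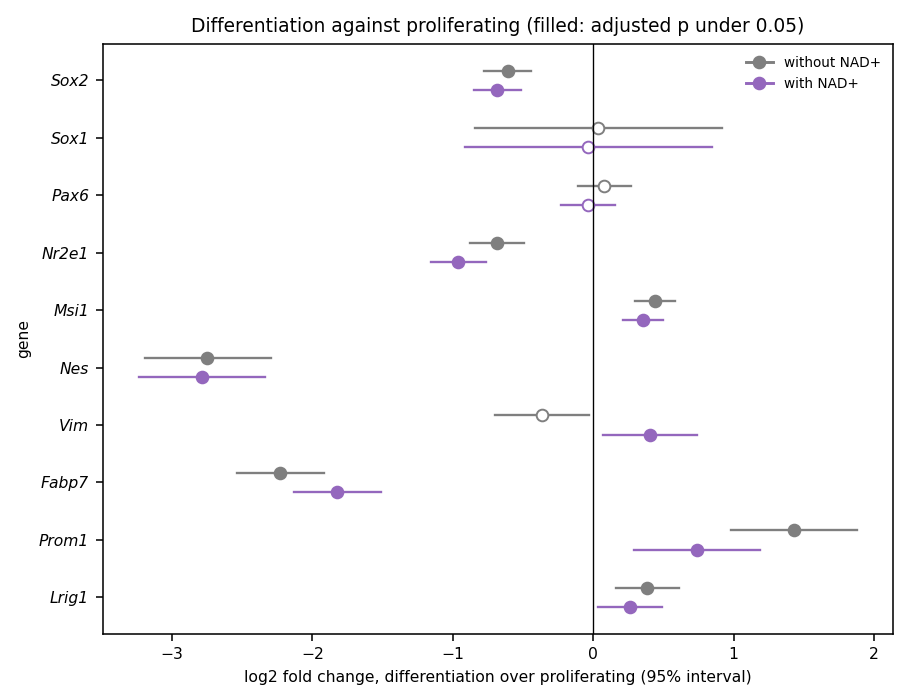
Log2 fold change of differentiation over proliferating conditions (horizontal axis) for each of the 10 genes, without and with NAD+, with 95% intervals from the limma fit of 12 libraries. Filled points have an adjusted p under 0.05, with Nes (-2.75 and -2.79) and Fabp7 (-2.23 and -1.82) far to the left, Prom1 (1.43 and 0.74) to the right, and Vim at -0.36 without NAD+ and 0.40 with it.

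Ratios of members within a library do not depend on the scaling of that library. Only some of the possible pairs are given, and how many other pairs had ranges apart was not counted. The ratios restate the FPKM values above and are no further evidence. The ratio of Nes to Vim, both intermediate filament genes, was 0.202 to 0.498 in proliferating Ctrl and 0.352 to 0.505 in proliferating NAD+ libraries. It was 0.0628 to 0.0733 in differentiating Ctrl and 0.0432 to 0.0540 in differentiating NAD+ libraries, so the ranges were apart between conditions and, under differentiation conditions, between Ctrl and NAD+. Vim was 0.758 to 0.936 of Sox2 in proliferating Ctrl, 0.812 to 0.884 in proliferating NAD+ and 0.820 to 1.18 in differentiating Ctrl libraries, but 1.61 to 1.96 times Sox2 in differentiating NAD+ libraries, which stood apart from the other 9. Fabp7 exceeded Sox2 by 8.08 to 10.4 times in proliferating Ctrl, 4.71 to 7.13 times in proliferating NAD+, 2.93 to 3.22 times in differentiating Ctrl and 2.52 to 3.05 times in differentiating NAD+ libraries. NAD+ and Ctrl ranges of this last ratio were apart under proliferating conditions and overlapped under differentiation conditions. Nes to Sox2 was 0.190 to 0.377 in proliferating Ctrl and 0.286 to 0.447 in proliferating NAD+ libraries, which overlapped. It was 0.0592 to 0.0744 in differentiating Ctrl and 0.0784 to 0.0936 in differentiating NAD+ libraries.

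**Figure D4:**
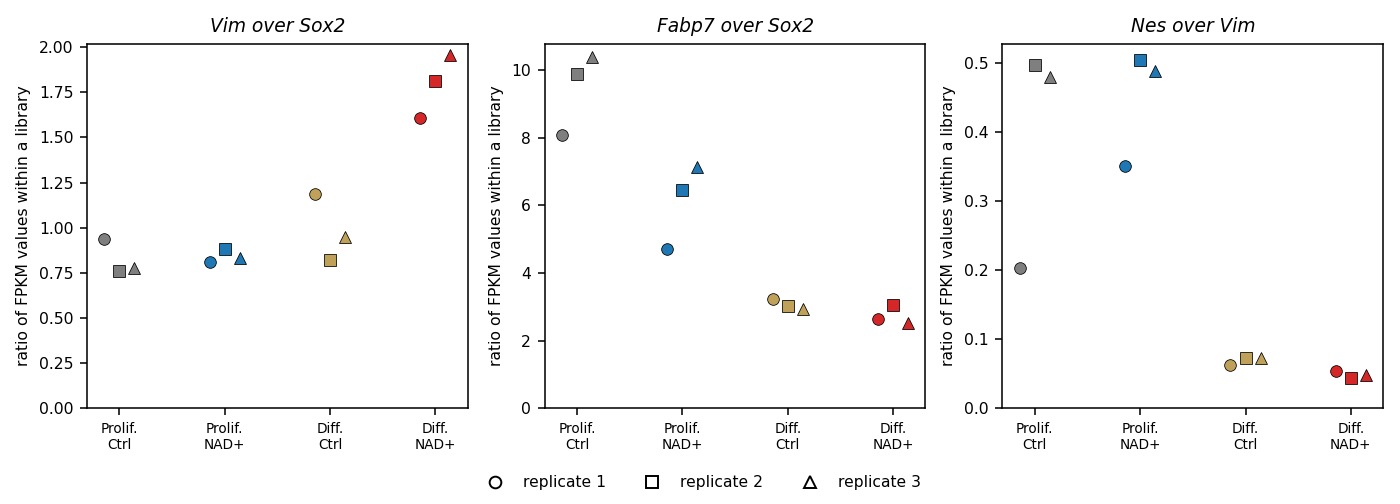
Ratios of FPKM values within each library (linear axes from 0) for Vim over Sox2, Fabp7 over Sox2 and Nes over Vim, with 1 point per library and symbols for replicate number. Vim over Sox2 is highest in the 3 differentiating NAD+ libraries (1.61 to 1.96), Fabp7 over Sox2 is lower with NAD+ in proliferating cells, and Nes over Vim falls under 0.08 in all 6 differentiation libraries.

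Further genes of the stem and progenitor programme were read beside the members. Of 16 such genes (Notch signalling, radial glia and regulators of quiescence), 0 passed in either direction with NAD+ under proliferating conditions, against 0.145% of all genes. The most abundant there, the glutamate transporter gene Slc1a3, had a log2 fold change of -0.05 (adjusted p = 0.832). Id3, an inhibitor of differentiation factors, followed in abundance, with a log2 fold change of -0.36 (adjusted p = 0.172). Under differentiation conditions 2 rose, 5 fell and 9 did not pass with NAD+, against 2.27% of all genes higher and 4.65% lower. Tnc, an extracellular matrix glycoprotein of the stem cell niche, fell by 1.60 (adjusted p = 0.0207), and Hes5, a target of Notch, by 0.89 (adjusted p = 0.0150). The Tnc estimate ran from -1.84 to -0.84 over 14 alternatives, at mean levels of 1.72 FPKM in Ctrl and 0.52 FPKM in NAD+. Hopx, a marker of quiescent stem cells, fell by 0.42 (adjusted p = 0.0339), and Sox9, a factor of stem cells and astrocytes, rose by 0.38 (adjusted p = 0.0140). Without a library in turn, the Sox9 call was kept in 4 of 6 fits, the Hes5 call in 3, the Tnc call in 2 and the Hopx call in 0 (adjusted p from 0.0530 to 0.103). The median of the 16 was -0.22, against -0.08 for all genes.

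Among 10 close relatives of the members, 7 were tested, and only Fabp5, which encodes another fatty acid-binding protein of progenitors, passed with NAD+. It fell by 0.74 under proliferating conditions (SE 0.07, adjusted p = 0.0326), from 211.2 ± 4.79 to 126.6 ± 4.15 FPKM. This call was kept in 1 of the 6 fits that leave out a library, the one without Ctrl replicate 1 (adjusted p = 0.0415, otherwise up to 0.180), and was lost without the filter on low values, with quantile normalization and without moderation. Under differentiation conditions it fell by 1.11 (SE 0.08, adjusted p = 0.00361), from 103.9 ± 4.56 to 48.1 ± 4.89 FPKM, and the call was kept in all 14 alternatives. Fabp7 was lower with NAD+ in every sample of each condition without passing. The difference of the Fabp5 effect between conditions was -0.38 (adjusted p = 0.139).

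Genes of dividing cells were lower beside Nes. All 10 (Mki67 and Top2a among them) fell under differentiation conditions, against 31.6% of all genes without NAD+ and 37.6% with NAD+. Their median log2 fold change was -5.14 without NAD+ and -5.49 with NAD+. Their summed level was 298.6 to 415.9 FPKM in the 6 proliferating libraries and 23.1 to 26.1 FPKM in the 6 differentiation libraries. With NAD+, 0 of the 10 passed in either condition, against 0.145% of all genes under proliferating and 6.92% under differentiation conditions. So few genes passed under proliferating conditions that the 0 there says little. In the same order of conditions, Pcna, the replication clamp, had log2 fold changes of 0.15 (adjusted p = 0.587) and 0.15 (adjusted p = 0.168). Rrm2, a subunit of ribonucleotide reductase, had log2 fold changes of 0.26 (adjusted p = 0.479) and -0.70 (adjusted p = 0.101).

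Markers of other cells also differed between the groups compared. Between conditions without NAD+, 5 of 8 astrocyte markers rose and 2 fell, against 25.0% of all genes higher and 31.6% lower, and their summed level went from 1157 to 1836 FPKM to 6312 to 8070 FPKM, mostly through Apoe, a lipid carrier, whose mean was 5704 FPKM in differentiating Ctrl libraries. Oligodendrocyte lineage markers summed to 1308 to 1428 FPKM in proliferating Ctrl and 1053 to 1082 FPKM in proliferating NAD+ libraries. There 0 of 8 tested passed, against 0.145% of all genes, and the transcription factor gene Olig1 had a log2 fold change of -0.41 (adjusted p = 0.160). Under differentiation conditions they summed to 570.1 to 586.7 FPKM in Ctrl and 425.1 to 444.1 FPKM in NAD+, and the myelin gene Cnp fell (log2 fold change -0.70, adjusted p = 0.0147, kept in 4 of the 6 fits that leave out a library). For neuron markers 0 passed with NAD+ in either condition, against 0.145% of all genes under proliferating and 6.92% under differentiation conditions. Their sums overlapped at 34.5 to 44.4 FPKM over all 12 libraries, although single markers went in opposite directions between conditions. Of the 10 tested between conditions without NAD+, 3 rose, such as Dcx (1.49 to 4.06 FPKM), and 2 fell, such as Syn1 (8.32 to 3.83 FPKM). In NAD+ libraries 5 rose and 2 fell, against 20.8% of all genes higher and 37.6% lower. Ependymal markers summed to 11.2 to 12.8 FPKM in proliferating and 30.7 to 33.9 FPKM in differentiation libraries. Of these markers 0 passed with NAD+, against 0.145% of all genes under proliferating and 6.92% under differentiation conditions. Endothelial and mural markers summed to at most 1.58 FPKM, and of these Kcnj8, a potassium channel gene of mural cells, rose with NAD+ under differentiation conditions from 0.13 to 0.587 FPKM (adjusted p = 0.0280, kept in 1 of the 6 fits that leave out a library). Fibroblast and meningeal markers summed to at most 4.93 FPKM, nearly all of it from Pdgfra, a receptor gene also expressed by oligodendrocyte precursors, at 4.46 FPKM as a mean in differentiating Ctrl libraries. The other 4 (Col1a1, Col1a2, Dcn and Lum) were at 0.16 FPKM or less in every library, and Pdgfra, the 1 gene tested within each condition, did not pass with NAD+. The part of these cell types in the members' values was not tested.

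Across the 12 libraries, the genes most like Sox2 among 12919 genes with a mean of at least 1 FPKM were Chmp4b (Pearson r = 0.996), Psmb6, Eif3f, Drap1 and Cox5a. Among those most like Nes were Dek (Pearson r = 0.997), Mmp15, Cdc6 and Kif14, and of these Cdc6 loads the replication helicase and Kif14 acts in cytokinesis. The libraries fall into 2 conditions with few values in between, and these correlations, which carry that difference, are given as a description.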

How the data were processed

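RNA-seq was done on 12 aNSPC samples. Per the paper's methods, the authors mapped reads to mm10 with Hisat2, kept uniquely mapped reads and counted them with FeatureCounts. The FPKM values were deposited by the authors as a table per condition, rounded to 0.01. The program behind them is not given in the sources used here. The tables also hold the authors' fold changes and p-values, which were not used. Here log2(FPKM + 0.1) was fitted with limma 3.58.1 (R 4.3.3, moderated variance with a trend, two-sided) after a filter at a mean FPKM of 0.1, and adjusted by Benjamini-Hochberg over all tested genes. NAD+ and Ctrl were compared within each condition. Contrasts between conditions used all 12 samples. No member is below the filter. The 10 members, the marker lists (16 progenitor genes and others) and the named genes (in each list up to 4 called genes with the largest change and a mean FPKM of at least 1, or the 2 of highest mean) were chosen with earlier results of these data known. On simulated data with 200 changed genes, the share recovered at a 4-fold change was 89.5% for NAD+ under proliferating and 91.5% under differentiation conditions, and at a 1.5-fold change, nearer to the members' NAD+ differences, 0.0% and 35.0%. Gene positions came from GENCODE M21, in which 55141 of 55401 IDs were found. Some genes that these rules name are not reported here.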

Additional observations from a re-analysis of the deposited data

Results flagged for a closer look

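Tnc, an extracellular matrix gene read beside the 10 members, was singled out because the effect of NAD+ differed between conditions by a test of the difference itself. The difference, differentiation minus proliferating, was -2.05 on the log2 scale (SE 0.27, adjusted p = 0.0178 in limma). It passed in 9 of the 12 fits that leave out a library (adjusted p up to 0.0641). Over 20 alternatives it ran from -2.30 to -1.28 and passed in 17. The Tnc values under differentiation conditions are low enough that the amount added before log2 bears on its size. Tnc lay at 18.0 to 21.5 FPKM in proliferating Ctrl and 25.4 to 27.5 FPKM in proliferating NAD+ libraries. It lay at 1.49 to 1.88 FPKM in differentiating Ctrl and 0.34 to 0.74 FPKM in differentiating NAD+ libraries, so NAD+ samples were higher than all Ctrl samples in one condition and lower in the other.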

How the results depend on the processing

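Depth is unknown, so counting error cannot be given, and with 3 samples a group a single library carries much of each estimate. Of the 1687 recomputed values, 1504 kept their side of the threshold or lay within 1.5 times the count. Estimates that passed in neither fit are among these even where their sign turned. An example is Sox2 under proliferating conditions, at -0.05 in the main fit and 0.07 with quantile normalization. The refits of the named genes that are not members were added after the data were seen. The rule of the study (unadjusted p under 0.05 and a ratio over 2) was applied with the p of the limma fit. Its counts here are therefore not those that the authors reported. Under proliferating conditions 27 genes passed with NAD+, against 9 without the filter and 75 with a minimum mean FPKM of 1. With quantile normalization 60 passed, without moderation 0 (2702 at an unadjusted p under 0.05), by the rule of the study 559 and without a library 0 to 36. The members that passed numbered 0 in each of these settings. Under differentiation conditions 1357 genes passed, against 594 without moderation, 795 by the rule of the study and 328 to 719 without a library. Of the members 3 passed there, against 1 (Pax6) without moderation, 0 by the rule of the study and 0 to 1 without a library. The difference of the NAD+ effect passed for 91 genes, against 139 with 1 added before log2 and 12 to 195 without a library. Between conditions the rule of the study gave 6058 genes and 3 members without NAD+, and 6520 genes and 2 members with NAD+, against 11048 and 7, and 11386 and 8. Leaving out a library gave 9946 to 11080 and 10235 to 12054 genes. Pax6 turned from -0.04 to 0.24 with median-ratio scaling between conditions with NAD+. The cause of these shifts was not tested.

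The replicate numbers are in the titles, and over all genes same-numbered samples deviated together with correlations of 0.111, 0.0215 and 0.0529 under proliferating and 0.0411, 0.0432 and 0.0257 under differentiation conditions. These are low, and the main fits did not treat the samples as pairs, but a single gene can still follow the number. Nes was higher with NAD+ in every same-numbered pair. In limma with the replicate number as a block, its adjusted p was 0.270 under proliferating and 0.104 under differentiation conditions, against 0.620 and 0.210 in the main fits. Under differentiation conditions every sample correlated best with its own number, and under proliferating conditions not every one did. With the replicate block, 0 genes passed with NAD+ under proliferating conditions (3094 at an unadjusted p under 0.05), 758 under differentiation conditions and 47 for the difference of the effects. The Fabp5 call under proliferating conditions was lost with the block (adjusted p = 0.147), as were those of Slc1a2, Aldoc and Kcnj8 under differentiation conditions. Of the members only Msi1 passed with NAD+ under differentiation conditions with the replicate block, so the count was 1, and between conditions Lrig1 no longer passed with NAD+ (adjusted p = 0.0628).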
